A study of Mus musculus with 2 samples.

Results

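The transcription factor genes Trp63, Tfap2a, Tfap2b, Tfap2c, Klf5, Sox4 and Pou3f1 were followed in neonatal mouse epidermis across the basal states, the stages of the interfollicular epidermis (IFE) and the hair follicle. The 7 genes were selected by their symbols, and each symbol had 1 row among the 27998 genes measured in both libraries. Epidermal cells were isolated, with dead cells removed, from the skin of male C57BL/6J mice at postnatal day 0 without Chrm3, which encodes the M3 muscarinic acetylcholine receptor (Chrm3 knockout, KO), and single-cell RNA sequencing gave 1 library for each of 2 mice (mouse 1 and mouse 2). Both mice had the same genotype and the labels name no treatment, so every value is a level in Chrm3 KO epidermis, and the wild-type libraries with which the study compared them were not analysed here. The line is a Chrm3-/- line for which no tissue-specific driver is described, so the KO is not limited to the keratinocytes (KCs).

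The basal layer of the epidermis holds the dividing KCs, which exit the cell cycle, move outward and switch from the keratins Krt5 and Krt14 to Krt1 and Krt10. Trp63 encodes p63, a relative of p53 that maintains the basal state and the stratified epithelium. The AP-2 proteins encoded by Tfap2a, Tfap2b and Tfap2c bind the same type of GC-rich palindrome and act in ectoderm and neural crest derivatives. Klf5 is a zinc-finger factor of the Krüppel-like family, Sox4 is an HMG-box factor of the SoxC group that is known from progenitor cells of many tissues, and Pou3f1 (also called Oct6) is a POU-domain factor of skin and of Schwann cells.

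Transcripts were counted by unique molecular identifiers (UMIs), which remove PCR copies. Mouse 1 had 10816 barcodes with 109756784 UMIs and mouse 2 had 15867 with 166441732, of which 7607 and 11881 cells passed the limits of 900 to 7700 genes and less than 10% mitochondrial UMIs. Both libraries shared 127 barcodes, to which 68 kept cells belonged. Chrm3 itself had 13 and 19 UMIs in the kept cells of mouse 1 and mouse 2, which do not say from which part of the gene they came. Clusters named from marker genes gave 13 KC classes with 14760 cells, 8 in the IFE and 5 in the follicle. The 2743 cells that stayed without a class all lay in clusters placed in the IFE, some of them led by follicle genes such as Lhx2. Neither the clustering nor the naming used the 7 genes. Levels are counts per 1000000 UMIs (CPM) over the summed cells of a class in 1 mouse, and log2 fold changes come from edgeR's quasi-likelihood test on these sums with Benjamini-Hochberg adjustment over 12623 genes. The p-values rest on 2 mice, and the class sums of 1 mouse share its library. Fold changes were scaled by TMM, and with scaling by total UMIs, the scale of CPM, they moved by 0.10 in basal 2 against basal 1, 0.13 in dividing basal, 0.19 in basal aberrant, -0.11 in differentiated, 0.29 in terminally differentiated and 0.19 in follicle progenitor KCs.

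Some classes also held markers that name other classes or cell types. The terminally differentiated class had only 95 cells, and although 15 of 15 of its markers were detected in both mice, it also held melanocyte markers at a summed 479 and 365 CPM, follicle progenitor markers at 1078 and 1073 CPM and G2/M markers at 1417 and 1823 CPM. In the other 12 KC classes the summed melanocyte markers reached at most 46.8 and 67.8 CPM. The differentiated class held upper follicle markers at 2451 and 1951 CPM, and basal aberrant KCs held follicle progenitor markers at 1194 and 1209 CPM, against 383 and 403 CPM in basal 1. The inner root sheath and shaft class held G2/M markers at 2999 and 2960.01 CPM. Follicle progenitors held S phase markers near the level of dividing follicle KCs and above that of basal 1, with values given below. Whether the cells of a class express these markers or the RNA came from other cells was not tested. Their part in the results below was not tested either.

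The genes lie on 6 chromosomes of GRCm38 (mm10), with positions from GENCODE M21. Trp63 occupies chr16:25683763-25892102 (plus strand) with 8 annotated transcripts, and a UMI does not say which p63 isoform it came from. Tfap2a lies at chr13:40715302-40738376 (minus strand), Tfap2b at chr1:19208914-19238576 (plus strand) and Tfap2c at chr2:172549593-172558622 (plus strand). Klf5 lies at chr14:99298691-99315036 (plus strand), Sox4 at chr13:28948919-28953713 (minus strand) and Pou3f1 at chr4:124656807-124660655 (plus strand). Trp63, Tfap2a, Sox4 and Pou3f1 overlap annotated noncoding genes on the opposite strand, so that reads of these genes and of their partners can be told apart only by strand. Trp63 also overlaps the processed pseudogene Gm27005 on its own strand, from which strand does not separate it. RefSeq promoter windows (GRCm38.p6), of which the 250 bases before the RefSeq start were read, were at hand for 3 of the 7 genes. That of Tfap2b precedes an internal start and lies inside the gene as GENCODE annotates it, outside its exons. Those of Sox4, which differed most between the resting basal states, and of Tfap2b, which was highest outside the KCs, are shown 5′ to 3′ on the gene's strand, with matches of CCAAT on either strand in capitals.
Sox4 promoter, chr13:28953714-28953949, minus strand: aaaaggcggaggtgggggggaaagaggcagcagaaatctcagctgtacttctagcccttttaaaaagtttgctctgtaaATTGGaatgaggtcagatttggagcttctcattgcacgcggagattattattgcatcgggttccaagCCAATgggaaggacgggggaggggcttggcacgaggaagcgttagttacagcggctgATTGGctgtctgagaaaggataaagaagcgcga
Tfap2b window before an internal RefSeq start, chr1:19211804-19212053, plus strand: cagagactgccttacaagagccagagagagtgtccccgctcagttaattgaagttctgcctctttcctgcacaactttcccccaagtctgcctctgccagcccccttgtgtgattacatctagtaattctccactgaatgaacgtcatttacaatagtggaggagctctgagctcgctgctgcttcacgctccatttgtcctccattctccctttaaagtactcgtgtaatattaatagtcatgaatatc
The Sox4 window of 250 bases held 4 matches of CCAAT, of which 3 are in the 236 bases shown, since the last 14 bases are exonic in GENCODE. At least 1 match was found in 33.8% of 32851 promoter windows, and 4 or more in 0.84%. The Tfap2b window had no match of 6 motifs searched on both strands, which were the AP-2 palindrome GCCNNNGGC (in 13.7% of windows), the GC box GGGCGG (32.7%), CACCC (52.0%), CCAAT (33.8%), the octamer ATGCAAAT (1.6%) and TATAAA (12.4%). A match describes letters of the window and not a bound site.

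**Figure D1:**
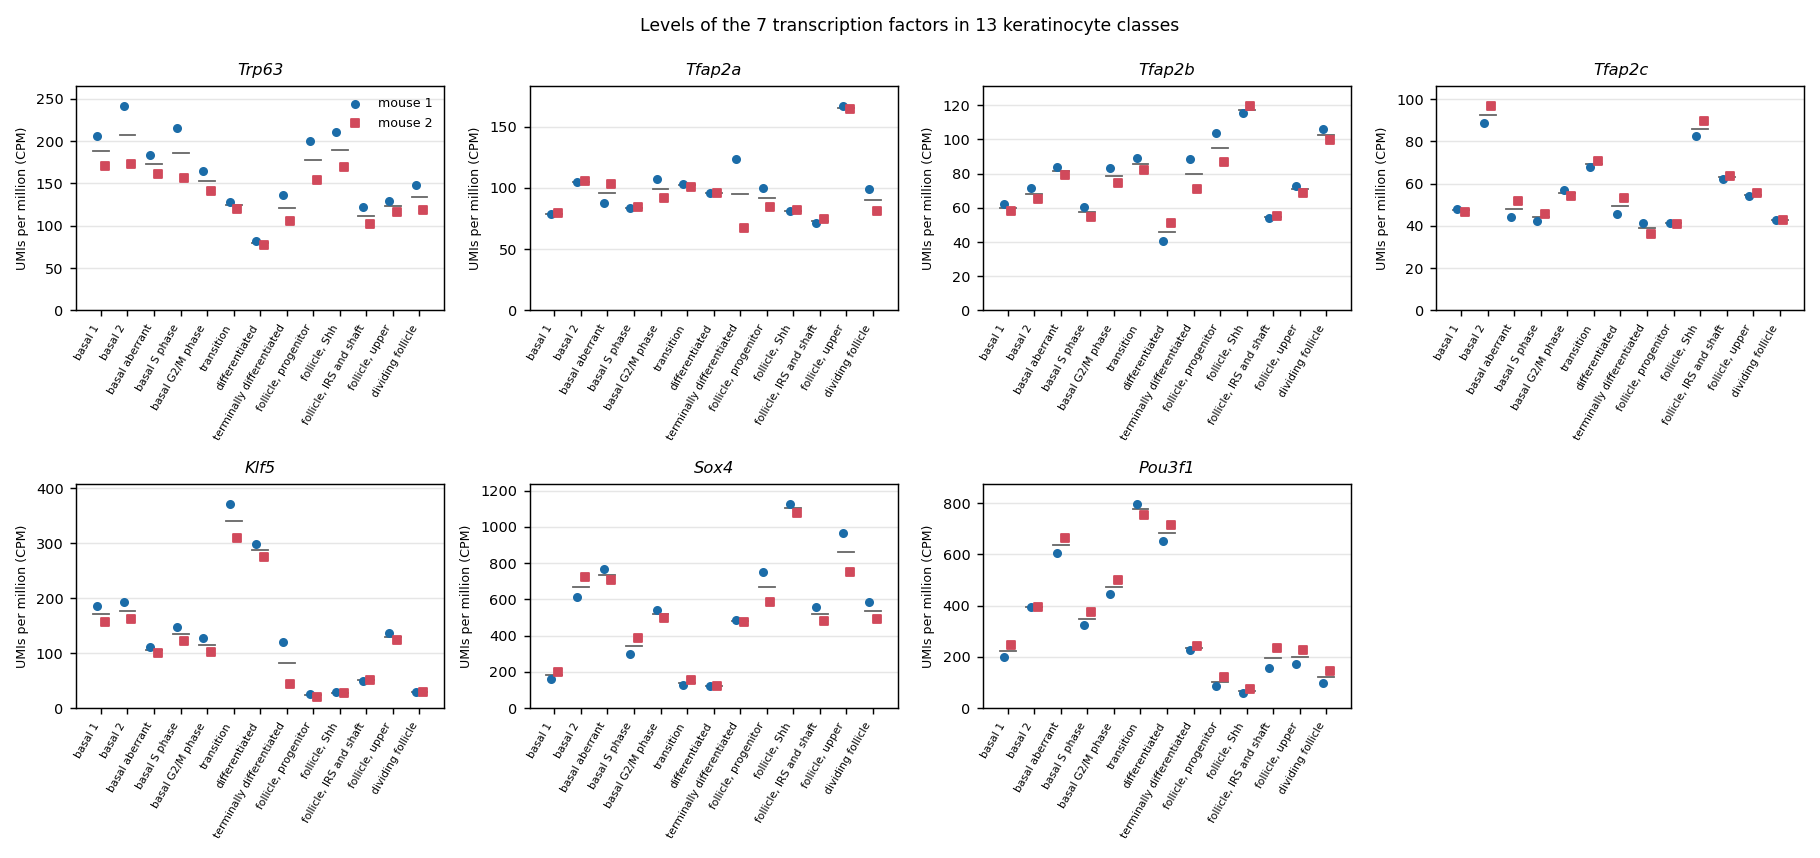
Levels of the 7 genes in the 13 KC classes, in CPM on linear axes that start at 0, with a point for each mouse and a bar for the mean of 2 mice. Klf5 and Pou3f1 peak in transition KCs and are lowest in the follicle, Sox4 peaks in Shh follicle KCs and is lowest in differentiated KCs, and Trp63 and the AP-2 genes vary less.

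The genes differed in how far their levels varied among the 13 classes. Klf5 varied most, with a mean level 14.4-fold higher in the highest class than in the lowest, followed by Pou3f1 (11.5-fold) and Sox4 (8.90-fold). The lowest class of Klf5, follicle progenitors, overlapped melanocyte-like cells in level, as given below. Trp63 varied 2.59-fold, and Tfap2a, Tfap2b and Tfap2c varied 2.27, 2.56 and 2.39-fold. These ratios compare classes within each gene and not genes with each other.

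**Figure D2:**
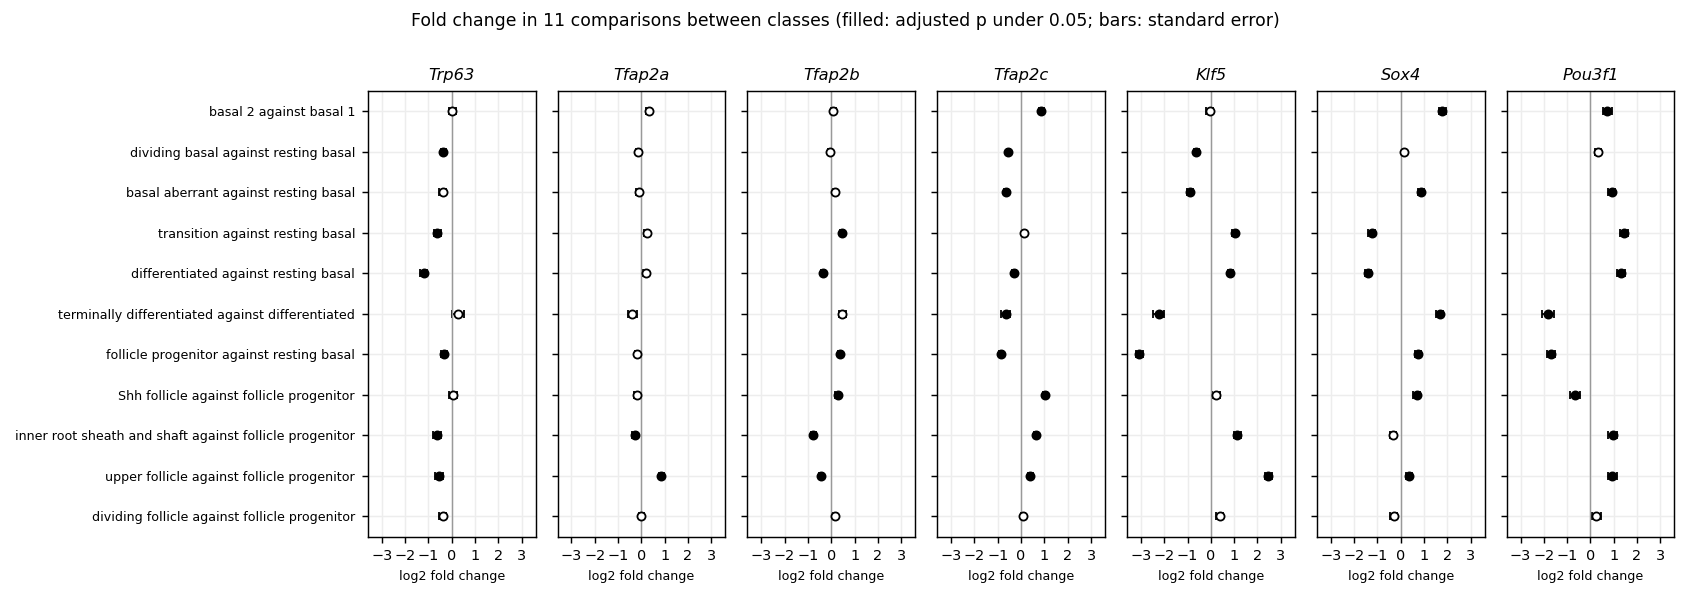
Log2 fold changes of the 7 genes in 11 comparisons of classes, with standard errors; filled points passed an adjusted p of 0.05 in edgeR's test. Klf5 in follicle progenitors against resting basal KCs (-3.08) is the largest fall, and Klf5 in upper follicle against follicle progenitors (2.46) the largest rise.

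Within the basal layer, the resting states basal 1 and basal 2 differed in 3 of the 7 genes, all higher in basal 2 (Sox4, Tfap2c and Pou3f1), where 10.3% of all genes tested were called. Dividing basal KCs, the average of the S phase and G2/M phase classes, had lower Klf5, Tfap2c and Trp63 than the average of the resting states, beside 29.9% of all genes. In basal aberrant KCs, the class marked by Ptch1, Gli1 and Ccnd1, 4 genes were called (Pou3f1 and Sox4 higher, Klf5 and Tfap2c lower), beside 24.5% of all genes. Along the IFE, 5 genes were called in transition KCs against resting basal KCs (background 25.9%) and 6 in differentiated KCs (background 56.4%), and terminally differentiated KCs differed from differentiated KCs in 4 (background 26.2%).

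In the follicle, the progenitor class differed from resting basal KCs in 6 of the 7 genes, with 2 higher and 4 lower, where 49.6% of all genes were called. Since progenitors held S phase markers, this does not set resting cells alone side by side, and the part of cycling cells was not tested. Against these progenitors, 4 genes were called in Shh follicle KCs (background 31.2%), 6 in inner root sheath and shaft KCs (background 45.1%) and 7 in upper follicle KCs (background 46.4%). None of the 7 was called in dividing follicle KCs with edgeR (background 15.3%) or with DESeq2, and 2, Klf5 and Trp63, had an unadjusted p under 0.05. When the mouse was a block, both were called there, with Klf5 0.39 (adjusted p = 0.0025) and Trp63 -0.37 (adjusted p = 2.3e-05), and the count over all genes rose from 1927 to 3695. Over 10 alternatives each of both genes was called under 3. Without integration, 6 of the 7 were called in dividing follicle KCs, where the count over all genes was 4575 in place of 1927. Pou3f1 (0.99) and Tfap2b (0.49) were then higher and Sox4 (-0.90), Tfap2a (-0.78), Tfap2c (-0.57) and Trp63 (-0.79) lower. The progenitor class was named anew without integration and held 1304 cells, in place of 3912 in the main clustering. The block also raised the count for basal 2 against basal 1 from 1294 to 2145.

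Trp63, which maintains the basal state, was highest in the basal, Shh follicle and follicle progenitor classes and fell along the IFE up to the differentiated class. It was at 206 CPM in mouse 1 and 170.4 CPM in mouse 2 in basal 1, 241 and 173 CPM in basal 2, 128 and 120.4 CPM in transition and 82.3 and 77.2 CPM in differentiated KCs. Both mice were lower in transition than in either resting basal class, and both were lowest in differentiated KCs. Against resting basal KCs the log2 fold change was -0.61 ± 0.15 (SE, adjusted p = 0.004) in transition and -1.19 ± 0.15 (SE, adjusted p = 6.4e-07) in differentiated KCs. At a finer clustering (resolution 1.2) the latter was -1.94, where the differentiated class held 167 cells in place of 750. In terminally differentiated KCs Trp63 was at 136 and 105 CPM, above differentiated KCs in both mice, though not by share of cells in mouse 2, as given below. The log2 fold change of 0.28 ± 0.25 (SE, adjusted p = 0.46) was not called. It was called without integration (0.69), at the finer clustering (1.25) and under a limit of 5% mitochondrial UMIs (1.57). The differentiated class compared against then held 300, 167 and 74 cells, in this order. The resting states did not differ beyond their spread (0.033 ± 0.16 (SE, adjusted p = 0.95)).

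In dividing basal KCs Trp63 was at 216 and 157 CPM in S phase and 165 and 141 CPM in G2/M phase, and its log2 fold change against the resting states was -0.36 ± 0.12 (SE, adjusted p = 0.023). Scaling by total UMIs in place of TMM left -0.23 there, which was not called (adjusted p = 0.19). In basal aberrant KCs (184 and 162 CPM) the value of -0.38 missed the threshold (adjusted p = 0.059), while it was called with the mouse as a block (-0.36, adjusted p = 6e-05).

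Follicle progenitors had Trp63 at 201 and 154 CPM and Shh follicle KCs at 211 and 169 CPM, both within the range of the basal classes. The log2 fold change of progenitors against resting basal KCs was -0.34 ± 0.14 (SE, adjusted p = 0.045), a call that was lost under DESeq2 (-0.33), its size factors in edgeR (-0.33) and total UMIs (-0.15), and that turned to 0.050 without integration of the mice. Inner root sheath and shaft KCs (122 and 102 CPM) and upper follicle KCs (129 and 116 CPM) were lower than progenitors, with -0.63 ± 0.16 (SE, adjusted p = 0.0027) and -0.53 ± 0.16 (SE, adjusted p = 0.0091). Without integration these were -0.99 and -0.97, whereas under a limit of 5% mitochondrial UMIs they were -0.32 and -0.15 and neither was called. Under that limit the progenitor class held 272 cells.

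A list of 21 p63-linked genes, all of which passed the filter, fell more often than it rose up to the differentiated class of the IFE, but not after it. In transition KCs 3 rose and 12 fell, with a median log2 fold change of -0.47 beside -0.015 over all genes, and in differentiated KCs 3 rose and 15 fell (median -1.96, all genes 0.022). From differentiated to terminally differentiated KCs, with the other markers given above, 9 rose and 4 fell (median 0.55, all genes -0.036; 10 higher and 4 lower with scaling by total UMIs). Over all genes called, the split was 1650 higher and 1623 lower in transition, 3738 higher and 3380 lower in differentiated and 1648 higher and 1665 lower in terminally differentiated KCs. Col17a1 and Krt15 of this list were also markers that named clusters. Without them the median in differentiated KCs was -1.96 and 13 of 19 fell. Jag2, a Notch ligand, fell from 67.5 and 61.3 CPM in basal 1 to 4.14 and 4.64 CPM in differentiated KCs (log2 fold change against resting basal KCs -3.64), and Itga3, the integrin alpha 3 chain of the basement membrane contact, from 38.2 and 33.96 CPM to 1.24 and 3.96 CPM (-3.54).

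The risers of the list were Perp, Cdkn1a and Zfp750, in transition and in differentiated KCs alike. Zfp750, a zinc-finger factor of terminal differentiation, rose from 1.69 and 2.04 CPM in basal 1 to 114 and 134 CPM in differentiated KCs (log2 fold change 5.85). In follicle progenitors 3 of the 21 were higher and 17 lower than in resting basal KCs (median -1.22, all genes 0.012), beside 3383 higher and 2872 lower over all genes called, led by Krt14 at 2482 and 2647 CPM against 19025 and 20029 CPM in basal 1. In basal aberrant KCs 0 were higher and 12 lower (median -0.45, all genes 0), where all genes called were 1789 higher and 1306 lower. In dividing basal KCs 1 and 12 were called (median -0.38, all genes -0.031), beside 1908 higher and 1860 lower over all genes. With scaling by total UMIs, which moves these splits over all genes, the list had 0 higher and 8 lower in basal aberrant, 1 higher and 9 lower in dividing basal, 3 higher and 16 lower in follicle progenitor and 2 higher and 4 lower in basal 2 KCs. Basal 2 had 7 of them lower than basal 1 and none higher (median -0.28, all genes 0.0023, with 548 higher and 746 lower over all genes called), among them Krt14 (-0.83) and Krt5 (-0.70), with Trp63 at the values given above.

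The other genes of the p53 family were measured beside Trp63. Trp73, which encodes p73, was low, at 14.5 and 11.01 CPM in basal 1, 20.04 and 22.1 CPM in follicle progenitors and 0.829 and 1.47 CPM in differentiated KCs. It fell against resting basal KCs in transition (-2.37) and differentiated KCs (-3.24), and in contrast to Trp63 it was higher in follicle progenitors (0.61, adjusted p = 0.0038); the difference between both genes was not tested. Trp53 itself was at 68.5 and 67.4 CPM in basal 1, 115 and 113 CPM in Shh follicle and 31.8 and 36.5 CPM in differentiated KCs, with a log2 fold change of -1.12 in the last.

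Among the AP-2 genes, Tfap2a varied least between the classes. It was at 167 CPM in mouse 1 and 164 CPM in mouse 2 in upper follicle KCs, above every other KC class in both mice, and at 78.7 and 79.4 CPM in basal 1 and 71.4 and 74.5 CPM in inner root sheath and shaft KCs. The log2 fold change of upper follicle KCs against follicle progenitors (99.7 and 84.1 CPM) was 0.84 ± 0.11 (SE, adjusted p = 2e-06), and without integration it was 0.13 and not called. Inner root sheath and shaft KCs were lower than progenitors (-0.29 ± 0.11 (SE, adjusted p = 0.037)), by -0.16 without mouse 1 and -0.48 without mouse 2, -1.03 without integration, and not called under the 5% mitochondrial limit (-0.40).

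Neither transition nor differentiated KCs had a called change of Tfap2a against resting basal KCs (0.22 and 0.18, adjusted p = 0.13 and 0.12). The former was called under 2 of 9 alternatives, and at the finer clustering the latter was -0.31 and called. Basal 2 (105 and 106 CPM) lay above basal 1 in both mice. That difference of 0.31 missed the threshold (adjusted p = 0.1), and with the mouse as a block it passed it (0.31, adjusted p = 0.03). The block also called Tfap2a lower in follicle progenitors than in resting basal KCs (-0.19) and lower in Shh follicle KCs than in progenitors (-0.20). Without integration, however, Tfap2a was called higher in progenitors than in resting basal KCs (0.58, adjusted p = 5.8e-05).

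Among KCs, Tfap2b was highest in the Shh, dividing and progenitor classes of the follicle. It was at 115 CPM in mouse 1 and 119 CPM in mouse 2 in Shh follicle KCs, 106 and 99.4 CPM in dividing follicle KCs and 104 and 86.7 CPM in progenitors, against 61.96 and 58.02 CPM in basal 1 and 40.7 and 50.9 CPM in differentiated KCs. Progenitors exceeded resting basal KCs in both mice (0.38 ± 0.081 (SE, adjusted p = 0.0005)), but without integration the value was -0.069. Shh follicle KCs exceeded progenitors by 0.27 ± 0.091 (SE, adjusted p = 0.027), by 0.44 without mouse 1 and 0.13 without mouse 2, by 0.49 without the dividing cluster of that class, 0.41 at the finer clustering and 0.67 without integration, and the value was -0.37 under the 5% mitochondrial limit.

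In the IFE Tfap2b rose at the transition (88.9 and 82.3 CPM, 0.48 ± 0.090 (SE, adjusted p = 0.00041)) and was below resting basal KCs in the differentiated class (-0.37 ± 0.090 (SE, adjusted p = 0.0015)). The latter was -0.18 without mouse 1, -0.98 without integration and -1.32 at the finer clustering. Terminally differentiated KCs (88.7 and 70.8 CPM) lay above differentiated KCs in both mice. They also held the melanocyte markers given above, and melanocyte-like cells had Tfap2b at 577 and 563 CPM. The difference of terminally differentiated from differentiated KCs, 0.48 ± 0.17 (SE, adjusted p = 0.061), missed the threshold. It was called under 7 of 10 alternatives, among them DESeq2 (0.52) and total UMIs (0.76), and reached 1.86 at the finer clustering and 2.20 under the 5% mitochondrial limit. Against follicle progenitors it was lower in inner root sheath and shaft KCs (-0.76 ± 0.10 (SE, adjusted p = 1.5e-06); -0.37 without integration and -1.23 under the 5% mitochondrial limit). It was also lower in upper follicle KCs (-0.43 ± 0.095 (SE, adjusted p = 0.00085)), which without integration was -0.11 and not called and under the 5% limit -1.01.

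**Figure D3:**
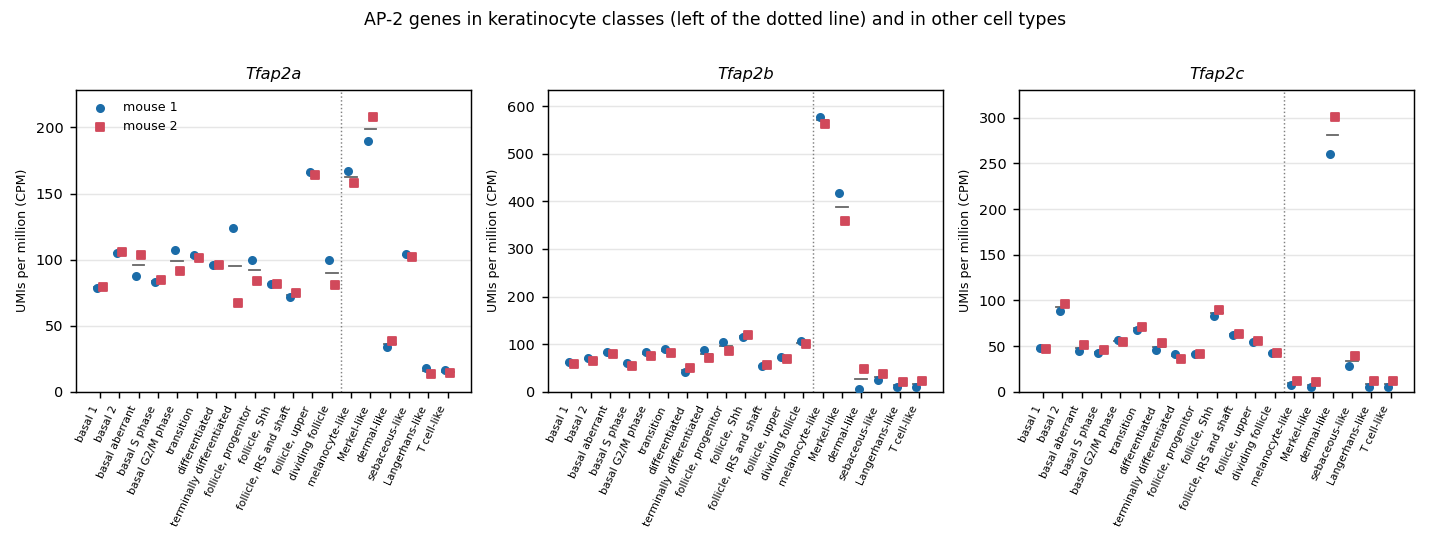
Levels of Tfap2a, Tfap2b and Tfap2c in CPM on a linear axis, in the 13 KC classes and in the other cell types of the epidermis, with a point per mouse and a bar for the mean. Tfap2b stands out in melanocyte-like and Merkel-like cells, Tfap2c in dermal-like cells, and Langerhans-like and T cell-like cells are low for all of them.

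Outside the KCs the AP-2 genes separated by cell type. Melanocyte-like cells held Tfap2b at 577 CPM in mouse 1 and 563 CPM in mouse 2 and Merkel-like cells, of which there were 20 per mouse, at 417 and 359 CPM, both above every KC class. Tfap2a was at 167 and 158 CPM in melanocyte-like and 189.6 and 208 CPM in Merkel-like cells, while Tfap2c was only at 7.13 and 11.4 CPM in melanocyte-like cells. Dermal-like cells held Tfap2c at 261 and 301 CPM, above every KC class, and Tfap2b at 4.83 and 48.8 CPM. These levels were not part of any test.

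Tfap2c was higher in basal 2 than in basal 1 and higher in Shh follicle KCs than in progenitors. It was at 88.7 CPM in mouse 1 and 96.5 CPM in mouse 2 in basal 2 and 48.2 and 46.5 CPM in basal 1, with no overlap between the classes (0.87 ± 0.10 (SE, adjusted p = 5.2e-06)). Shh follicle KCs (82.5 and 89.5 CPM) were likewise above progenitors (41.5 and 41.02 CPM), by 1.03 ± 0.086 (SE, adjusted p = 6e-09), and by 0.41 without integration and 0.58 under the 5% mitochondrial limit, both called. Progenitors lay below resting basal KCs (-0.87 ± 0.079 (SE, adjusted p = 8.2e-09); -0.30 without integration).

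Basal aberrant KCs (44.2 and 51.7 CPM, -0.64 ± 0.088 (SE, adjusted p = 1.1e-05)) and dividing basal KCs (-0.55 ± 0.070 (SE, adjusted p = 3.3e-06)) had less Tfap2c than the average of the resting states. All of these classes lay below basal 2 in both mice, but not all below basal 1 (48.2 and 46.5 CPM). Basal aberrant KCs overlapped basal 1, S phase KCs (42.3 and 45.8 CPM) were just below it and G2/M phase KCs (56.8 and 54.2 CPM) above it. Transition KCs, at 67.9 and 70.7 CPM, did not differ from resting basal KCs beyond the spread (0.12, adjusted p = 0.32). Differentiated KCs were lower than resting basal KCs (-0.31 ± 0.081 (SE, adjusted p = 0.0026)), with -0.49 without integration and -0.62 at the finer clustering. Inner root sheath and shaft KCs (0.64 ± 0.089 (SE, adjusted p = 4.8e-06)) and upper follicle KCs (0.40 ± 0.090 (SE, adjusted p = 0.00099)) were above progenitors, yet without integration these were 0.11 and -0.13 and under the 5% limit 0.22 and 0.045, none of them called. The fall in terminally differentiated against differentiated KCs (-0.65) was lost under 5 alternatives and was 0.21 under the 5% limit.

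The proteins that bind AP-2 were read from a list of 5 genes, of which 4 passed the filter (Cited1 did not). Kctd1, a repressor of AP-2 activity, rose from 34.4 and 31.9 CPM in basal 1 to 59.6 and 57.04 CPM in transition and 96.8 and 98.5 CPM in differentiated KCs (log2 fold changes against resting basal KCs 1.21 and 2.01). Cited4, one of the CITED coactivators, was low in every class and rose to 17.96 and 22.1 CPM in differentiated KCs (2.18), and Cited2 rose there as well (1.02), whereas Kctd15 fell (-0.63). Apart from the terminally differentiated class, Cited2 was highest in follicle progenitors (82.1 and 64.3 CPM; 1.27 against resting basal KCs). The AP-2 gene Tfap2e was at 23.5 and 20.8 CPM in basal 1 and 29.6 and 24.2 CPM in transition KCs (0.35), and Tfap2d did not pass the filter.

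Klf5 had the widest range of the 7 genes and separated the IFE from the follicle. It was at 370.3 CPM in mouse 1 and 308 CPM in mouse 2 in transition and 299 and 275 CPM in differentiated KCs, at 186 and 156 CPM in basal 1 and 192 and 162 CPM in basal 2, and at 25.9 and 21.2 CPM in follicle progenitors. Every IFE class except the terminally differentiated one was above all follicle classes but the upper follicle in both mice, and so was the upper follicle class itself (136 and 124 CPM). In terminally differentiated KCs the mice differed (120.4 and 44.00 CPM), and mouse 2 lay below the inner root sheath and shaft class.

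Against resting basal KCs Klf5 rose in transition (1.02 ± 0.12 (SE, adjusted p = 2e-06)) and in differentiated KCs (0.83 ± 0.12 (SE, adjusted p = 4.7e-06)), the latter by 0.52 without integration and 0.25 at the finer clustering, both called. From differentiated to terminally differentiated KCs it fell (-2.24 ± 0.23 (SE, adjusted p = 2e-07)), with -1.06 at the finer clustering and -0.57 under the 5% mitochondrial limit. That fall rests on 38 and 23 UMIs of Klf5 in the terminally differentiated class, in which the mice differed as given above. The resting basal states did not differ beyond their spread (-0.047, adjusted p = 0.91).

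Klf5 was lower in basal aberrant (112 and 100.4 CPM, -0.91 ± 0.14 (SE, adjusted p = 3.3e-05)) and dividing basal KCs (-0.62 ± 0.11 (SE, adjusted p = 0.00012)), and follicle progenitors were lowest of all (-3.08 ± 0.15 (SE, adjusted p = 4.3e-13)). The level in progenitors overlapped that of melanocyte-like cells (23.1 and 27.2 CPM). How much of it was free RNA was not tested, and fold changes of Klf5 over progenitors depend on that part. Within the follicle the upper class exceeded progenitors in both mice (2.46 ± 0.16 (SE, adjusted p = 7.5e-11)). Inner root sheath and shaft KCs did so too (49.3 and 51.5 CPM, 1.14 ± 0.16 (SE, adjusted p = 5.9e-06)), but the value was 0.34 without integration and 0.35 under the 5% limit and was then not called. Shh follicle KCs (29.01 and 26.98 CPM) overlapped dividing follicle KCs (30.2 and 29.6 CPM) in level and did not differ from progenitors beyond the spread (0.22, adjusted p = 0.35).

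Whether division went with the same change in both compartments was tested as a difference of differences, which called 7.09% of all genes. The contrasts are not alike, since the IFE side averages S phase and G2/M phase classes against resting classes, while the follicle side is 1 cluster named by G2/M markers against progenitors that held S phase markers at 1317 and 1449 CPM, beside 1379.7 and 1438 CPM in dividing follicle KCs and 383 and 463 CPM in basal 1. Klf5 fell with division in the IFE (-0.62) and was 0.38 (not called) in the follicle, a difference of 1.00 ± 0.19 (SE, adjusted p = 0.0018). Its levels on the follicle side (30.2 and 29.6 CPM against 25.9 and 21.2 CPM) were near those of melanocyte-like cells (23.1 and 27.2 CPM). How far free RNA set the follicle value was not tested. Tfap2c fell against the average of the resting states in the IFE (-0.55) and was 0.078 in the follicle, a difference of 0.63 ± 0.11 (SE, adjusted p = 0.00089). In level its G2/M phase class (56.8 and 54.2 CPM) lay below basal 2 (88.7 and 96.5 CPM) but above basal 1 (48.2 and 46.5 CPM) in both mice. Without integration of the mice neither difference was called (0.32, adjusted p = 0.37, and 0.027, adjusted p = 0.96). The progenitor class then held 1304 cells in place of 3912. For Trp63 the difference was -0.022 (adjusted p = 0.99). With the mouse as a block the count over all genes rose from 895 to 2045.

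Other Krüppel-like genes were measured as paralogs of Klf5. Klf4, which acts in barrier formation, was at 404 and 364 CPM in basal 1, 489 and 412 CPM in transition and 1038 and 979.8 CPM in differentiated KCs, so that its highest class came later in the IFE than that of Klf5. It rose by 0.33 in transition and 1.55 in differentiated KCs and, like Klf5, was lower in follicle progenitors (-1.90) and higher in upper follicle KCs (1.53). Klf3 took the same directions in these comparisons, with 0.59, 1.26, -2.15 and 2.12. Of the 15 paralogs tested of 19 listed (Tfap2d, Pou3f2, Pou3f3 and Pou3f4 did not pass the filter), 9 were higher and 3 lower in upper follicle KCs than in progenitors (median 0.60, all genes -0.016), beside 2959 higher and 2897 lower over all genes called. In progenitors 3 were higher and 10 lower than in resting basal KCs (median -0.47, all genes 0.012), or 3 higher and 9 lower with scaling by total UMIs, beside 3383 higher and 2872 lower over all genes called.

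Sox4 was high in basal 2, not in basal 1, and in most of the follicle. It was at 164 CPM in mouse 1 and 199.99 CPM in mouse 2 in basal 1 and 615 and 726 CPM in basal 2, and at 129.8 and 153 CPM in transition and 125 and 122 CPM in differentiated KCs. Basal 2 lay far above basal 1 in both mice, with a log2 fold change of 1.78 ± 0.15 (SE, adjusted p = 4.4e-07). The study describes its basal 2 cluster partly by Sox4, so that this value is not independent evidence. Basal aberrant (766 and 708 CPM, 0.88 ± 0.12 (SE, adjusted p = 1.4e-05)), G2/M phase (543 and 497 CPM) and S phase (299.9 and 388 CPM) KCs lay above basal 1 as well, and the dividing classes together did not differ from the average of the resting states beyond the spread (0.15, adjusted p = 0.31).

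Sox4 fell in transition (-1.24 ± 0.14 (SE, adjusted p = 6.9e-07)) and differentiated KCs (-1.39 ± 0.14 (SE, adjusted p = 1.9e-08); -2.54 at the finer clustering). Both mice had less Sox4 in these classes than in any other KC class. The level in the terminally differentiated class, 488 and 474 CPM, was higher than in differentiated KCs (1.67 ± 0.17 (SE, adjusted p = 1.5e-07); 2.79 at the finer clustering and 2.66 under the 5% mitochondrial limit), with the follicle, G2/M and melanocyte markers given above in the same 95 cells.

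In the follicle Sox4 reached 1124 and 1079 CPM in Shh follicle KCs, 968 and 752 CPM in upper follicle KCs and 751 and 588 CPM in progenitors. Progenitors exceeded the average of the resting basal states by 0.75 ± 0.12 (SE, adjusted p = 2.9e-05), by 0.47 without mouse 1 and by 1.14 without integration. In level they were above basal 1 in both mice but overlapped basal 2 (615 and 726 CPM). The 3 clusters that made up the progenitor class differed among themselves, at 1126 and 781 CPM, 623 and 570.3 CPM and 615 and 487 CPM. Shh follicle KCs were higher than progenitors (0.68 ± 0.14 (SE, adjusted p = 0.0008)), a call lost without integration (0.13) and under the 5% mitochondrial limit (0.39). The higher level in upper follicle KCs (0.35 ± 0.14 (SE, adjusted p = 0.049)) was lost under 4 alternatives and was -0.26 without integration. Inner root sheath and shaft KCs (-0.33, adjusted p = 0.064) were called lower than progenitors with the mouse as a block (-0.33, adjusted p = 0.025). Over 10 alternatives this was called under 5, with values down to -0.85.

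The other SoxC genes took smaller shares. Sox12 was at 32.7 and 33.3 CPM in basal 1 and 41.3 and 36.8 CPM in basal 2 and fell to 8.29 and 9.40 CPM in differentiated KCs (-1.90). Sox11 was at 17.03 and 20.98 CPM in upper follicle KCs and 3.24 and 4.38 CPM in progenitors (2.28), and at most 1 CPM in each IFE class in either mouse. Unlike Sox4, Sox11 thus stayed near 0 in basal 2 and basal aberrant KCs.

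Pou3f1 was higher in basal 2 than in basal 1, higher again by level in basal aberrant and transition KCs, and lowest in the follicle. It was at 199 CPM in mouse 1 and 246 CPM in mouse 2 in basal 1, 397 and 395 CPM in basal 2 and 607 and 664 CPM in basal aberrant KCs, with no overlap between these classes. The log2 fold change was 0.73 ± 0.20 (SE, adjusted p = 0.021) for basal 2 against basal 1 and 0.91 ± 0.16 (SE, adjusted p = 0.00027) for basal aberrant against resting basal KCs. In transition KCs (796 and 756 CPM) it was 1.44 ± 0.16 (SE, adjusted p = 8.6e-07), and in differentiated KCs (654 and 714 CPM) 1.31 ± 0.16 (SE, adjusted p = 5.7e-07), or 0.67 without integration and 0.80 at the finer clustering.

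Dividing basal KCs had Pou3f1 at 323 and 374 CPM in S phase and 446 and 499.6 CPM in G2/M phase, and the change against resting KCs (0.32, adjusted p = 0.086) was called with the mouse as a block (0.32, adjusted p = 0.0011). Over 9 alternatives it was called under 5 and reached up to 0.64. From differentiated to terminally differentiated KCs (228 and 241 CPM) the log2 fold change was -1.82 ± 0.24 (SE, adjusted p = 5.3e-06), and it was -0.88, -0.71 and -0.99 without integration, at the finer clustering and under the 5% mitochondrial limit.

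Follicle progenitors held Pou3f1 at 88.00 and 120.3 CPM, below every IFE class in both mice (-1.70 ± 0.18 (SE, adjusted p = 1e-07) against resting basal KCs). Upper follicle (174 and 228 CPM, 0.94 ± 0.20 (SE, adjusted p = 0.00053)) and inner root sheath and shaft KCs (157 and 234 CPM, 0.95 ± 0.20 (SE, adjusted p = 0.00049)) were higher than progenitors. The former was 1.75 without integration, 1.79 at the finer clustering and 1.79 under the 5% limit, and the latter 1.62 under that limit. The lower level in Shh follicle KCs (60.02 and 75.2 CPM, -0.66 ± 0.20 (SE, adjusted p = 0.015)) was not called without integration (-0.35), at the finer clustering (-0.20) or without the dividing cluster of the class (-0.52), and was 0.010 under the 5% limit.

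**Figure D4:**
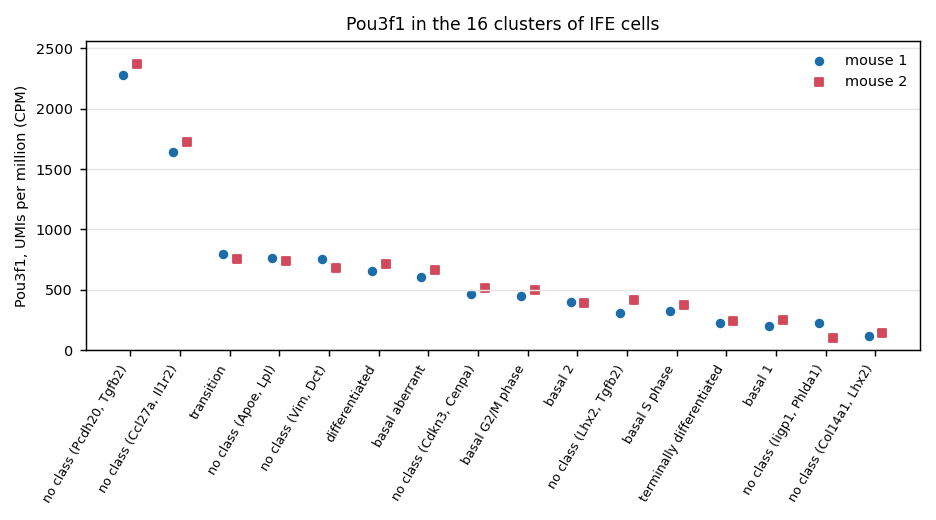
Pou3f1 level in CPM on a linear axis in each of the 16 IFE clusters, with a point per mouse, labelled by class or by leading genes where a cluster had no class. The clusters led by Pcdh20 and Tgfb2 (2278 and 2374 CPM) and by Ccl27a and Il1r2 (1639 and 1729 CPM) lie above every named class.

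The highest levels of Pou3f1 lay in clusters that took no class name. A cluster of 872 IFE cells led by Ccl27a and Il1r2 held 1639 and 1729 CPM, and a cluster of 61 cells led by Pcdh20 and Tgfb2 held 2278 and 2374 CPM. Both mice were above the transition class in each of them. Another unnamed cluster, led by Apoe and Lpl, was at 760.00 and 737 CPM. Klf5 in the first was at 212 and 196 CPM, between its basal and differentiated levels, and Sox4 at 350.02 and 310.4 CPM. These clusters were singled out after their values were seen and entered no test.

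Of the other POU genes, Pou2f3 (Oct11) was at 51.3 and 52.2 CPM in basal 1 and 82.9 and 80.04 CPM in differentiated KCs (0.67) and, like Pou3f1, was lower in follicle progenitors (14.9 and 12.2 CPM; -2.23) and higher in upper follicle KCs than in progenitors (1.21). In dividing basal and basal aberrant KCs Pou2f3 was lower (-0.71 and -0.93), where Pou3f1 had the values given above. Pou2f1 fell in differentiated KCs (-1.11).

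**Figure D5:**
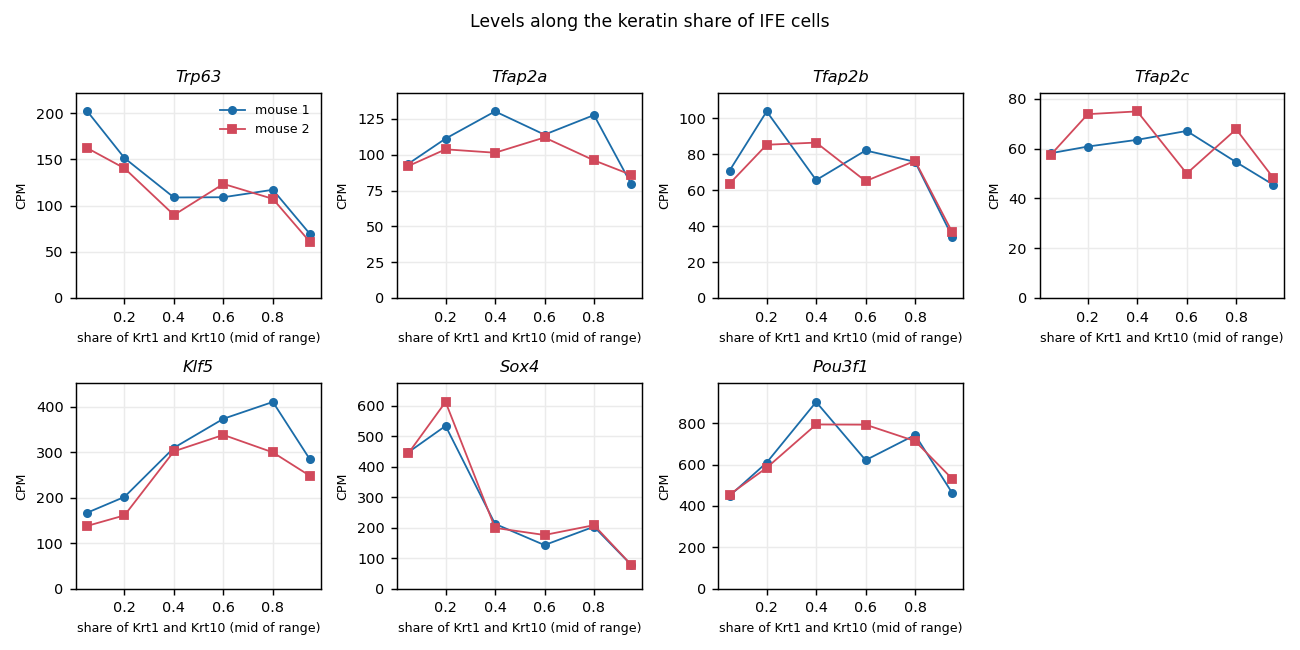
Levels of the 7 genes in cells of the named IFE classes, grouped into 6 ranges of the share of Krt1 and Krt10 among the UMIs of Krt1, Krt10, Krt5 and Krt14. Each mouse has a line, and the axes are linear in CPM. Trp63 is lower above 0.9 than below 0.1, Klf5 rises up to the range 0.7 to 0.9 in mouse 1 and 0.5 to 0.7 in mouse 2, and Sox4 peaks in the range 0.1 to 0.3.

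Cells of the named IFE classes were also ordered without regard to their class, by the share of Krt1 and Krt10 among the UMIs of Krt1, Krt10, Krt5 and Krt14. Each cell had at least 10 such UMIs. The 2743 cells without a class were left out, and with them the clusters of highest Pou3f1. Trp63 went from 202 and 162 CPM below a share of 0.1 to 69.2 and 60.6 CPM above 0.9. Klf5 went from 167 and 138 CPM to 374 and 338 CPM between 0.5 and 0.7 and to 284 and 248 CPM above 0.9, so that its highest levels lay inside the series of ranges. Pou3f1 was at 449 and 455 CPM below 0.1, 904 and 795 CPM between 0.3 and 0.5 and 464 and 532 CPM above 0.9.

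Sox4 had its highest level at a share of 0.1 to 0.3 (533 and 612 CPM) and fell to 212 and 199 CPM between 0.3 and 0.5 and 78.1 and 78.6 CPM above 0.9. Tfap2b went from 70.9 and 63.7 CPM to 34.2 and 36.7 CPM and Tfap2a from 93.8 and 92.2 CPM to 79.7 and 85.98 CPM between the end ranges. The range from 0.5 to 0.7 held only 39 cells of mouse 1 and 81 of mouse 2, and the range below 0.1 held 1631 and 2374. The range from 0.1 to 0.3, with the highest Sox4, was uneven between the mice, with 198 and 897 cells. Cells of a range were not split by class. A range of a ratio is not a cell type, and these levels are a description.

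A list of 23 other epidermal transcription factors, all of which passed the filter, is given beside the 7 genes. In transition KCs 12 rose and 5 fell (median 0.83, all genes -0.015), and in differentiated KCs 13 and 6 (median 1.16, all genes 0.022), with the splits over all genes given for the p63-linked genes. Among them 6, which include Lef1, Lhx2 and Sox9, also named clusters, and over the other 17 the median in differentiated KCs was 1.33. Grhl3, a grainyhead factor of barrier formation, was at 6.63 and 5.21 CPM in differentiated and 6.29 and 6.39 CPM in upper follicle KCs and under 0.5 CPM in each basal class. Lef1, a Wnt effector, fell in differentiated KCs (-3.59). It is a marker that named basal 2, so that its higher level there than in basal 1 (1.00) is not independent of the naming.

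Upper follicle KCs had 12 of the 23 higher and 6 lower than progenitors (median 0.83, all genes -0.016), led by Zfp750 at 115 and 113 CPM. Progenitors had 12 higher and 9 lower than resting basal KCs (median 1.06, all genes 0.012). With scaling by total UMIs 13 were higher and 5 lower. The follicle factors Sox9 and Lhx2 were at 236 and 184 CPM and at 417 and 412 CPM in progenitors, but both are markers that name this class. Without the genes that named clusters, 10 of 17 were higher and 5 lower (median 1.37). In basal aberrant KCs Sox9 was at 129.9 and 122 CPM, against 5.81 and 4.87 CPM in basal 1 (3.53), and Lhx2 at 45.8 and 54.1 CPM.

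The genes whose levels over the 13 classes were most like each of the 7 were read from the lower of both mice's Pearson correlations, over 7837 genes with a mean of at least 10 CPM. Klf5 was most like Pak6 (r = 0.962), Aqp3 (0.949) and Polr1d (0.939), and Sox4 was most like Wbp1 (0.981), Gm26735 (0.965) and Atat1 (0.962). Gm26735 overlaps Sox4 on the opposite strand, and their reads can be told apart only by strand. Trp63 was most like Ppic (0.923), Cxcl14 (0.92) and Tmem9 (0.915), of which Cxcl14 is a marker that named basal 2.

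Pou3f1 was most like Mall (0.855), Cfap57 (0.852) and Klf5 (0.848), the only case in which 1 of the 7 genes was among the nearest 3 of another. The nearest genes were Igsf3 for Tfap2a (0.904), Chst2 for Tfap2b (0.805) and Spint2 for Tfap2c (0.728). These correlations describe 13 classes that share 2 libraries and carry no test.

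The mice differed in the level of some of the genes across classes. Trp63 was higher in mouse 1 in 13 of 13 classes, with a median log2 ratio of 0.27, and Klf5 in 12 of 13 (0.24). Pou3f1 was higher in mouse 1 in 2 of 13 (-0.21). With 1 library per mouse, the animal and its library cannot be told apart.

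Free RNA in droplets gives UMIs in cells that do not express a gene, so the share of cells with a UMI was set beside Langerhans-like cells, each cell thinned to 3000 UMIs. Trp63 was detected in 53.2% and 40.96% of basal 2 cells in mouse 1 and mouse 2, 25.7% and 24.4% of differentiated cells and 2.78% and 6.22% of Langerhans-like cells, whose median depths were 7971, 18685 and 9639 UMIs in mouse 1 and 8165, 17209 and 9802 in mouse 2. Unthinned, the shares were 83.5% and 72.9%, 73.1% and 69.9% and 13.1% and 16.6%. Klf5 was detected in 57.3% and 63.8% of transition cells and 6.39% and 5.39% of follicle progenitors, against 3.47% and 3.63% of Langerhans-like cells and 5.42% and 5.45% of melanocyte-like cells. The level in follicle progenitors (25.9 and 21.2 CPM) also overlapped that in melanocyte-like cells (23.1 and 27.2 CPM). It lay above that in Langerhans-like cells (15.8 and 13.02 CPM) in both mice, and whether it was free RNA was not tested. Unthinned, the shares were 99.1% and 94.3%, 15.95% and 15.6%, 7.59% and 7.77% and 15.3% and 18.7%.

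Sox4 was detected in 94.8% and 92.3% of Shh follicle cells, 70.2% and 77.3% of basal 2, 32.97% and 42.8% of basal 1 and 11.1% and 13.99% of Langerhans-like cells after thinning, and in 99.7% and 99.7%, 91.7% and 91.7%, 71.4% and 78.5% and 22.1% and 27.98% before it. Pou3f1 was detected in 78.6% and 77.9% of transition cells and 3.47% and 7.77% of Langerhans-like cells (98.2% and 97.8% and 12.4% and 17.1% unthinned). Tfap2b was detected in 77.4% and 75.7% of melanocyte-like cells, 27.6% and 29.7% of Shh follicle cells and 2.08% and 3.11% of Langerhans-like cells (95.2% and 96.4%, 69.5% and 66.5% and 7.59% and 8.29% unthinned). The shares followed the order of the levels in CPM in each of these cases. They did not for Trp63 in the terminally differentiated class of mouse 2. There Trp63 was detected in 37.5% of 24 cells in mouse 1 and 8.33% of 36 cells in mouse 2 after thinning. In differentiated cells the shares were 25.7% and 24.4%, so that mouse 2 went the other way than its level in CPM.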

How the data were processed

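Epidermal cells of 2 Chrm3 KO mice were measured by droplet single-cell RNA-seq, 1 library per mouse. The authors deposited raw UMI counts per gene and barcode, which per the labels and file headers were made with Cell Ranger 3.0.2 on mm10. The sources differ on the version of the 3′ chemistry, and whether intronic reads were counted is not given in the sources used here. Every column of per-sample values was used.

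The study's limits on cells were applied (900 to 7700 genes, under 10% mitochondrial UMIs). Cells were clustered with Seurat 5.3.0 (2000 variable genes without the 7 genes, integration of the mice, 30 dimensions, resolution 0.8), first all cells and then those of the IFE. Clusters were named from marker lists, partly taken from the study, by the markers among their 10 leading genes and their mean enrichment, and the limits of this rule were set after the clusters were seen. Follicle clusters that it left unnamed were set against IFE cells in place of all other cells. Every cluster of the follicle progenitor class took its name in this way, each with 1 marker among its 10 leading genes. The classes are thus rebuilt and may hold other cells than the study's clusters of the same names. Scrublet (scanpy 1.11.5, Python 3.11.15) marked 175 and 416 doublets (2.30% and 3.50%), with the threshold found in mouse 2 used for both, since the one found in mouse 1 marked 0.0263% of its cells, and these cells were kept.

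UMI counts were summed per mouse and class, and the 26 sums were fitted in 1 model with edgeR 4.0.16 (R 4.3.3; filterByExpr, TMM, quasi-likelihood F-test, 13 residual degrees of freedom, threshold 0.05). A standard error is the fold change divided by the root of F. The code was tested on simulated data. Alternatives were DESeq2 1.42.0, its size factors, no filter on low counts, the mouse as a block, doublets left out, under 5% mitochondrial UMIs, resolution 1.2, no integration, each mouse left out, and for the keratin ranges a minimum of 50 keratin UMIs in place of 10. Those chosen after seeing the data were total UMIs in place of TMM, shared barcodes left out, Shh follicle without its dividing cluster, and the difference of the dividing effects.

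The sums of each mouse come from 1 animal, so that the mouse numbers pair them. Deviations of same-mouse sums correlated at -0.0068 to 0.39 over 78 pairs (median 0.14). The 7 genes and the lists of related genes were chosen with earlier results of these data known. Named were the 7 genes, for each the 3 genes of most similar level (at least 10 CPM), and from each list the 3 called genes with the largest changes in a comparison, while other list genes were chosen after their values were seen.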

Additional observations from a re-analysis of the deposited data

Results flagged for a closer look

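The change of Klf5 with division differed between the follicle and the IFE by 1.00 ± 0.19 (SE, adjusted p = 0.0018) in edgeR's test, with 0.38 in the follicle and -0.62 in the IFE. That of Tfap2c differed by 0.63 ± 0.11 (SE, adjusted p = 0.00089), with 0.078 and -0.55. Both were listed for a closer look because the effect of 1 contrast differed between compartments by a test of the difference itself. The sides are unlike, with S phase and G2/M phase classes against resting classes in the IFE and 1 cluster named by G2/M markers against progenitors with S phase markers at 1317 and 1449 CPM in the follicle (dividing follicle 1379.7 and 1438 CPM). For Tfap2c the resting classes were unlike as well. G2/M phase KCs (56.8 and 54.2 CPM) lay below basal 2 (88.7 and 96.5 CPM) but above basal 1 (48.2 and 46.5 CPM). For Klf5 the dividing follicle (30.2 and 29.6 CPM) and progenitor levels (25.9 and 21.2 CPM) were near melanocyte-like cells (23.1 and 27.2 CPM). How far free RNA set the follicle value of Klf5 was not tested. Without integration of the mice neither difference was called (0.32, adjusted p = 0.37, and 0.027, adjusted p = 0.96), and the cause was not tested. The progenitor class then held 1304 cells in place of 3912.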

How the results depend on the processing

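Of 48 calls of the 7 genes in 11 comparisons, 32 kept their direction and side of the threshold under each alternative that gave a tested value. These were 1 of 4 in Shh follicle, 2 of 6 in inner root sheath and shaft and 2 of 7 in upper follicle KCs. In progenitors 4 of 6 held, in dividing basal 2 of 3 and in terminally differentiated KCs 3 of 4. All held in basal 2, basal aberrant, transition and differentiated KCs, where fewer alternatives gave a value, as given below. In the other direction, 51 values under the alternatives with a test were called, with the same sign, where the main fit gave no call. The counts of genes called stayed within 1.5 times with DESeq2, its size factors, no filter, total UMIs, doublets left out and shared barcodes left out. With the mouse as a block, which uses the pairing of the sums, the counts were 2145 for basal 2 against basal 1 (main 1294), 3695 for dividing follicle against progenitors (main 1927) and 2045 for the difference of the dividing effects (main 895); 8 calls of the 7 genes changed, all given in the report, and no other. Without integration the last 2 were 4575 and 1395, and at resolution 1.2 they were 800 and 1463, with 5068 in transition KCs (main 3273). Under 5% mitochondrial UMIs, which left 2622 and 5923 cells, the counts were 1062 in Shh follicle (main 3939), 920 in dividing follicle and 2956 in inner root sheath and shaft KCs (main 5691).

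Values that changed sign follow. Without integration Klf5 was -0.43 in Shh and -0.25 in dividing follicle, Sox4 -0.26 and Tfap2c -0.13 in upper follicle, Tfap2c -0.57 in dividing follicle and Trp63 -0.31 in Shh follicle. In progenitors Tfap2a was 0.58, Tfap2b -0.069 and Trp63 0.050, Tfap2a was -0.22 in differentiated and 0.068 in terminally differentiated KCs, and the difference of the dividing effects was 0.35 for Pou3f1 and -0.70 for Tfap2a. Under 5% mitochondrial UMIs Klf5 (-0.43), Pou3f1 (0.010) and Tfap2b (-0.37) changed sign in Shh follicle, Klf5 (-0.10), Tfap2a (0.027), Tfap2b (-0.41), Tfap2c (-0.33) and Trp63 (0.17) in dividing follicle, and Tfap2a (0.39) and Tfap2c (0.21) in terminally differentiated KCs. At resolution 1.2 Sox4 was 0.087 and Tfap2a 0.041 in dividing follicle, Tfap2a -0.31 in differentiated and 0.33 in terminally differentiated KCs, and the difference of the dividing effects 0.39 for Pou3f1 and 0.022 for Trp63. With total UMIs Klf5 was 0.053 in basal 2, Tfap2a 0.079 in basal aberrant, 0.00034 in dividing basal, 0.0099 in progenitor KCs and -0.030 for the difference, and Tfap2b 0.068 in dividing basal KCs. The cause of these changes was not tested. Without integration, at resolution 1.2 and under 5% mitochondrial UMIs the classes were named anew, so that a name can cover other cells. The follicle progenitor class held 3912 cells in the main clustering, 1304 without integration and 272 under 5% mitochondrial UMIs. The differentiated class held 750, 300 without integration, 167 at resolution 1.2 and 74 under 5% mitochondrial UMIs. At resolution 1.2 the transition class included a cluster of 393 cells led by Krt79.

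Total UMIs in place of TMM moved the share of higher calls among all calls from 42.3% to 66.2% in basal 2 against basal 1, from 50.6% to 76.2% in dividing basal, from 57.8% to 84.96% in basal aberrant, from 49.7% to 73.5% in terminally differentiated, from 54.1% to 73.6% in progenitor KCs and from 31.2% to 8.82% for the difference of the dividing effects, and DESeq2 moved it to 60.3% in terminally differentiated KCs. Under 5% mitochondrial UMIs no cluster took the names of basal 2 or basal aberrant, so that no comparison with resting basal KCs gave a value, and without integration none took that of basal aberrant. Without replicate 1 or without replicate 2 the sums of the other mouse leave no residual degrees of freedom, so that only values without a test were had. Of 50 called values 0 changed sign, and those moved by over 1.5 times stand in the report. Counts over 2 mice limit the precision, and classes of few cells (terminally differentiated, Merkel-like) most.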
